A study of Mus musculus with 45 samples.

Results

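The genes described here encode subunits of potassium channels that ethanol is known to act on, namely the BK channel (Kcnma1, Kcnmb4), the SK channels (Kcnn1, Kcnn2, Kcnn3) and the GIRK channels (Kcnj3, Kcnj6, Kcnj9), together with the modifier subunit Kcns2. Every probeset whose array annotation gave 1 of these 9 symbols and no other was taken, which gave 25 of 45037 probesets. The genes were selected on what their products do, and Kcns2 was chosen by its CIE minus Ctrl difference at 0 h in these same arrays. Differences and counts of calls of these genes at 0 h are therefore given as a description, from which nothing is read. Tests are given for 8 h, 72 h and 7 d, with earlier results of these arrays known.

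Each of the 45 Affymetrix arrays held RNA of the nucleus accumbens (NAC) of 1 adult male C57BL/6J mouse. Mice of the chronic intermittent ethanol (CIE) groups had 4 cycles of 4 days with 16 h per day in ethanol vapor at 10 to 13 mg/l air, with 7 days of abstinence between cycles, and each cycle opened with an intraperitoneal injection of ethanol at 1.6 g/kg together with 1 mmol/kg of pyrazole, which blocks alcohol dehydrogenase. Ctrl mice were given saline with the same pyrazole and breathed air, so that all 8 groups carried pyrazole. Tissue was taken at 0 h (6 CIE, 6 Ctrl), 8 h (5 CIE, 5 Ctrl), 72 h (5 CIE, 6 Ctrl) or 7 d (6 CIE, 6 Ctrl) after the last session. Values are RMA values (log2 scaled), and differences are given as CIE minus Ctrl with their standard error (SE) from the limma fit. Arrays have no read depth, and their number limits the precision. In whole tissue, fewer cells of a type and less RNA per cell cannot be told apart.

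BK channels open with depolarization and calcium, end the action potential and limit transmitter release. Kcnma1 encodes their pore, and Kcnmb4 the beta subunit found mainly in neurons, which slows gating and alters the response to ethanol. SK channels are opened by calcium through bound calmodulin and carry the slower hyperpolarization after spikes. GIRK channels are opened by G protein beta-gamma subunits released by inhibitory receptors, and also directly by ethanol. Kcns2 encodes Kv9.2, which forms no channel by itself and alters the currents of Kv2 subunits. Projection neurons of the NAC are medium spiny neurons, whereas pyramidal neurons belong to the cortex around it.

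The tissue carried the defining genes of medium spiny neurons. Over all arrays the mean log2 value was 12.6 for Drd1, 12.1 for Ppp1r1b and 13.7 for Penk, against a median of 6.96 over the means of all probesets. Markers of cortical pyramidal neurons were measured for 9 of the 10 listed genes, and their mean, centred on its average over all arrays, varied widely between mice of a group. It ran from -1.06 to 0.58 in the 6 Ctrl mice at 0 h and from -0.94 to 1.29 in the 6 CIE mice at 0 h. Of those CIE mice, replicates 72, 5 and 67 had the highest cortical means, at 1.29, 1.05 and 0.76, and the lowest medium spiny neuron means of all mice at 0 h.

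Of the 25 probesets, 13 had a mean below the median of all probesets, among them the brightest ones of Kcnn1, Kcnn3 and Kcnj6. Each gene is described below by its brightest probeset, and levels of different probesets are not set against each other. Kcnma1 had 5 probesets, Kcnj6 5, Kcnj3 4, Kcnj9 4, Kcnn1 2, Kcns2 2, and Kcnmb4, Kcnn2 and Kcnn3 1 each. The position of Kcnn2 is not given here. The other genes lie on the mouse assembly GRCm38.p6 at chromosome 14, 23292288 to 24005110 (Kcnma1); chromosome 10, 116417861 to 116473859 (Kcnmb4); chromosome 8, 70843158 to 70865691 (Kcnn1); chromosome 3, 89520164 to 89672494 (Kcnn3); chromosome 2, 55411798 to 55598145 (Kcnj3); chromosome 16, 94744980 to 94997696 (Kcnj6); chromosome 1, 172320508 to 172329322 (Kcnj9); and chromosome 15, 34837355 to 34843407 (Kcns2).

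Promoter sequence was read for 7 of the 9 genes from RefSeq on GRCm38.p6, as 9 windows of 300 bases, from 250 before to 50 after a start. The cyclic AMP response element TGACGTCA, the AP-1 motif TGAGTCA and the Egr motif GCGTGGGCG, each on both strands, were in 0 of the 9 windows and in 1.79%, 5.2% and 0.612% of all 32851 windows. The glucocorticoid receptor motif AGAACA, also on both strands, was in 3 of the 9, once in Kcnmb4 and once in each of the Kcnj6 windows, against 19% of all. The Kcnmb4 and the first Kcnj6 window are shown because these are the members with a match before the start. The 250 bases before the start are printed 5′ to 3′ along the gene, with the match in capitals (TGTTCT being its reverse complement). A match of 6 letters is a description of the sequence and says nothing of binding.
Kcnmb4, chr10:116473524-116473773, minus strand: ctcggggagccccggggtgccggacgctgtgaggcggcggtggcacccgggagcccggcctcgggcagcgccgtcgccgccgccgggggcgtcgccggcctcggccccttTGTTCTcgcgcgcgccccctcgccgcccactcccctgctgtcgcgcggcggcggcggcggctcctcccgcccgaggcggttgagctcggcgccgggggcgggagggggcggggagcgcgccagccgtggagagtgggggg
Kcnj6, chr16:94997697-94997946, minus strand: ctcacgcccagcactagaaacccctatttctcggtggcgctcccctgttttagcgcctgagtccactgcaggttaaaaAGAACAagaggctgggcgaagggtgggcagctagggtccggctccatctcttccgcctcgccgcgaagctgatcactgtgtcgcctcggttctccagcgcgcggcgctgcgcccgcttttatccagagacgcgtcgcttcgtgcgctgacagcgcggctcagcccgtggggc

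The comparison of CIE with Ctrl at each time asked whether transcripts of these channels differed at the end of exposure and during withdrawal. After 0 h, no member probeset passed the adjusted p threshold of 0.01. At 0 h, 1 of 25 passed, against 1.59% of all probesets, and as it was the Kcns2 probeset by which that gene was chosen, the choice fixed this count. At 8 h, 0 of 25 passed by limma, against 0.0622% of all probesets. At 72 h 0 of 25 passed, against 0% of all, and at 7 d 0 of 25, again against 0%. At an unadjusted p under 0.05 the members numbered 5 of 25 at 0 h, the chosen Kcns2 probeset included (16.5% of all probesets), 1 of 25 at 8 h (7.42%), 4 of 25 at 72 h (7.2%) and 1 of 25 at 7 d (2.34%). Arrays of CIE and Ctrl did not overlap for 1 of 25 probesets at 0 h (1.35% of all probesets), the chosen Kcns2 probeset again, 0 of 25 at 8 h (1.93%), 0 of 25 at 72 h (0.915%) and 0 of 25 at 7 d (0.151%). The smallest adjusted p of any member was 0.402 at 8 h, 0.673 at 72 h and 1.0 at 7 d.

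**Figure D1:**
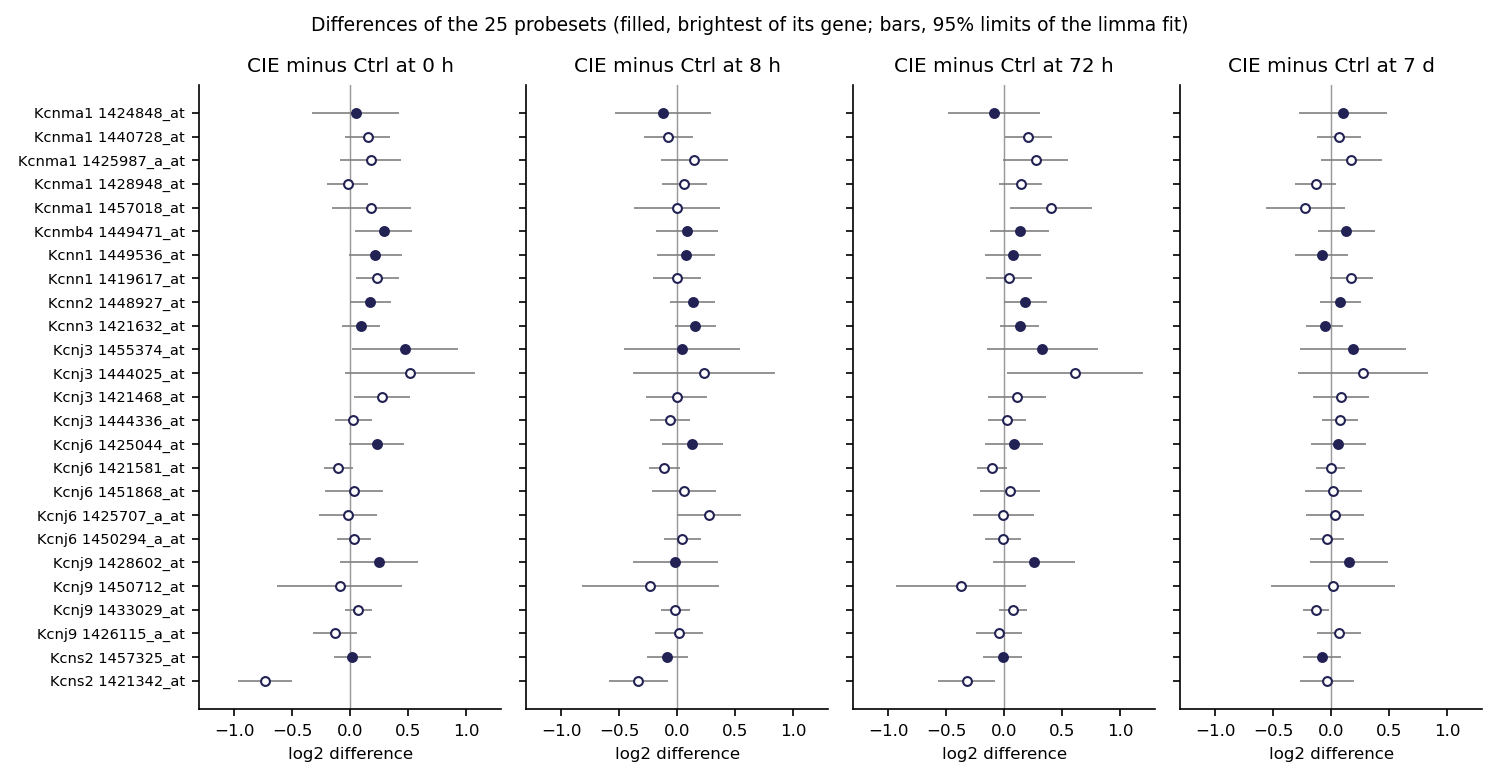
CIE minus Ctrl differences (log2, horizontal axis) of the 25 probesets (rows) at the 4 times (panels), with filled points for the brightest probeset of a gene and bars for the 95% limits of the limma fit. The dimmer Kcns2 probeset, the lowest row, lies at -0.73 at 0 h, away from the brighter one at 0.02, and the 95% limits of all 27 later differences of the brightest probesets include 0.

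The median difference of the 25 probesets was 0.09 at 0 h, where 19 were above 0, against a median of 0.00 with 51.8% above 0 over all probesets. It was 0.02 at 8 h (14 of 25 above 0; all probesets 0.00 and 50.4%), 0.08 at 72 h (17 of 25; 0.02 and 59.4%) and 0.06 at 7 d (16 of 25; 0.00 and 47.6%). All 9 brightest probesets lay above 0 at 0 h, with a median of 0.22. Within the 5 hybridization sets that hold an array of each group at 0 h (sets of arrays defined by exactly equal values), the difference was above 0 in 2 of 5 sets for Kcnma1, Kcnn1, Kcnj3, Kcnj6 and Kcnj9, in 1 of 5 for Kcnn2, in 3 of 5 for Kcnmb4 and the brighter Kcns2 probeset and in 4 of 5 for Kcnn3. Here and below, the set counts at 0 h leave out Ctrl replicate 20, which was in no set. They also leave out CIE replicate 72, whose set held no Ctrl array at 0 h. The mean differences at 0 h include both mice. With 1 array left out, the 0 h difference ran from -0.07 to 0.13 for Kcnma1 and from -0.041 to 0.065 for the brighter Kcns2 probeset. For these 9 the lowest of the 95% limits of the later differences was -0.53 (Kcnma1 at 8 h) and the highest 0.81 (Kcnj3 at 72 h). Limits differed between genes, and those of the brighter Kcns2 probeset at 8 h were -0.26 and 0.09. For each gene and time, the data allow changes of any size within its own limits.

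Kcns2 was read by 2 probesets that gave different accounts. At the dimmer probeset the values of the 6 Ctrl arrays at 0 h ran from 7.48 to 7.90 with a median of 7.60, and those of the 6 CIE arrays from 6.67 to 7.16 with a median of 6.88. Every CIE array at 0 h was below every Ctrl array. The difference of -0.73 (SE 0.11) is the value by which the gene was chosen, equal to a ratio of 0.602.

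At the brighter Kcns2 probeset the same arrays overlapped throughout. The 6 Ctrl arrays at 0 h ran from 9.91 to 10.23 with a median of 10.09, and the 6 CIE arrays from 9.85 to 10.38 with a median of 10.05. The difference was 0.02 (SE 0.08), with 95% limits of -0.14 and 0.18. Within the 5 sets the brighter probeset ran from -0.13 to 0.29 at 0 h, below 0 in 2 of 5, and the dimmer, chosen on these values, from -1.23 to -0.40. A lower Kcns2 level in CIE at 0 h was seen with 1 of its 2 probesets.

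**Figure D2:**
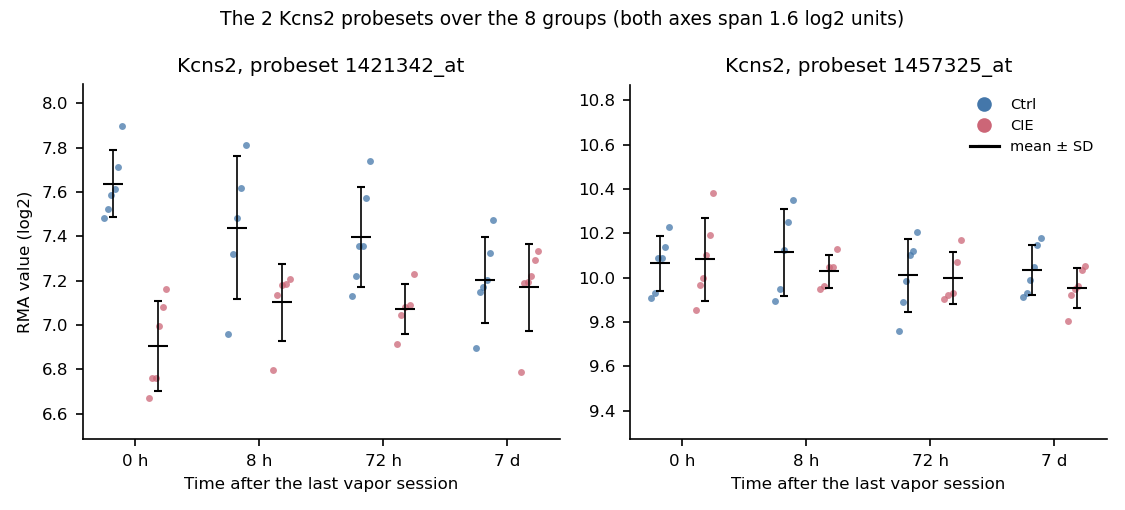
RMA values (log2, vertical axis) of the 2 Kcns2 probesets in each of 45 arrays by time after the last session (horizontal axis), with blue points for Ctrl, red for CIE and bars for the mean ± SD. In the dimmer probeset (left) the 6 CIE arrays lie below the 6 Ctrl arrays at 0 h and the groups overlap at every later time, whereas in the brighter (right) they overlap at all 4 times.

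At the later times the groups overlapped at the dimmer Kcns2 probeset. At 8 h the 5 Ctrl arrays read 6.96, 7.32, 7.48, 7.62 and 7.81 and the 5 CIE arrays 6.80, 7.14, 7.18, 7.19 and 7.21. Apart from Ctrl replicate 8 at 6.96, the Ctrl arrays were above all CIE arrays. The difference was -0.34 (SE 0.13, 95% limits -0.59 and -0.08, limma adjusted p = 0.402), below 0 in 5 of 5 sets. At 72 h the 6 Ctrl arrays ran from 7.13 to 7.74 with a median of 7.36, and the 5 CIE arrays read 6.92, 7.04, 7.08, 7.09 and 7.23. Only Ctrl replicates 6 and 34 lay in the range of CIE, and the difference was -0.32 (SE 0.12, 95% limits -0.57 and -0.08, limma adjusted p = 0.673), below 0 in 4 of 5 sets. At 7 d the groups lay together, with a difference of -0.03 (SE 0.11, 95% limits -0.27 and 0.20). Group means of Ctrl were 7.64, 7.44, 7.40 and 7.20 at 0 h, 8 h, 72 h and 7 d, and those of CIE 6.90, 7.10, 7.07 and 7.17, so that the lowest group was CIE at 0 h and the highest Ctrl at 0 h. Over the 3 later times neither the Ctrl nor the CIE means passed the F test (limma adjusted p = 0.769 and 0.98), and the change of the CIE effect from 8 h to 7 d was 0.30 (SE 0.17, limma adjusted p = 1.0).

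The brighter Kcns2 probeset stayed between group means of 9.95 and 10.11 over all 8 groups. Its differences were -0.09 (SE 0.09) at 8 h, -0.01 (SE 0.08) at 72 h and -0.08 (SE 0.08) at 7 d, with limma adjusted p of 0.934, 0.981 and 1.0. Over the 45 arrays, after group means were subtracted, the 2 probesets correlated at r = 0.46. The array annotation does not say which part of the transcript each probeset reads, and whether they read different transcripts was not tested.

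Of a list of other silent subunits and related channel proteins, 11 genes are described here. By limma 0 of the 11 passed at 0 h, 8 h, 72 h and 7 d, with median differences of 0.05, 0.10, 0.03 and 0.06. At 0 h they lay between -0.19 for Kcnv1 and 0.23 for Kcng2, both silent subunits.

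The BK pore gene Kcnma1 overlapped between CIE and Ctrl at every time. Its brightest probeset had Ctrl means of 10.26, 10.11, 10.08 and 10.20 and CIE means of 10.30, 9.98, 9.99 and 10.31 at 0 h, 8 h, 72 h and 7 d, with SDs from 0.21 to 0.40. The lowest and the highest of the 8 group means, 9.98 and 10.31, belonged to CIE at 8 h and at 7 d. At 0 h the 6 CIE arrays ran from 9.87 to 10.87 and the 6 Ctrl arrays from 10.01 to 10.60, with a difference of 0.05 (SE 0.19). The later differences were -0.12 (SE 0.20), -0.09 (SE 0.20) and 0.10 (SE 0.19), with limma adjusted p of 0.972, 0.937 and 1.0.

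The other 4 Kcnma1 probesets did not follow the brightest one closely. Their correlations with it within groups were 0.42, 0.45, -0.02 and 0.33 over 45 arrays. At 72 h all 4 lay above 0, by 0.14 to 0.40, while the brightest probeset lay at -0.09. Those at 0.21 (SE 0.10) and 0.40 (SE 0.18) had unadjusted p of 0.0421 and 0.0274 and limma adjusted p of 0.682 and 0.676, and were singled out after their values were seen. The second of them lay at -0.22 (SE 0.17) at 7 d, and its CIE effect changed from 72 h to 7 d by -0.62 (SE 0.24, limma adjusted p = 0.98).

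The beta subunit gene Kcnmb4 was higher in CIE on average at each time, and its arrays overlapped at each. At 0 h the 6 Ctrl arrays ran from 10.10 to 10.64 with a median of 10.48 and the 6 CIE arrays from 10.41 to 11.07 with a median of 10.65. The highest 3 CIE arrays were replicates 72, 5 and 67, the mice with the highest cortical marker means (1.29, 1.05 and 0.76), and the other 3 lay within the Ctrl range. The difference at 0 h was 0.29 (SE 0.12), above 0 in 3 of 5 sets. Later it was 0.09 (SE 0.13), 0.13 (SE 0.13) and 0.13 (SE 0.12), with limma adjusted p of 0.966, 0.839 and 1.0. Of the 8 groups, CIE at 0 h had the highest mean, 10.70 ± 0.27 (SD, n = 6), and Ctrl at 72 h the lowest, 10.22 ± 0.08 (SD, n = 6).

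Among 10 other BK and Slo genes, 8 were measured and 0 passed at any of the 4 times. They included the other beta subunits Kcnmb1, typical of smooth muscle, which lay at -0.08 (SE 0.11) at 0 h, and Kcnmb2, an inactivating beta subunit, at 0.04 (SE 0.12). Kcnmb1 was dim, with a mean of 4.97 over all arrays against the median of 6.96 of all probesets, and Kcnmb2 had a mean of 7.03.

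No probeset of the SK genes passed the threshold at 8 h, 72 h or 7 d. The brighter probeset of Kcnn1 (SK1) had its highest mean in CIE at 0 h, 6.90 ± 0.25 (SD, n = 6), and its lowest in Ctrl at 72 h, 6.57 ± 0.09 (SD, n = 6). Both Kcnn1 probesets lay on the same side, at 0.22 (SE 0.11) and 0.23 (SE 0.09) at 0 h. At the brighter one the highest CIE arrays were again replicates 72, 67 and 5, at 7.23, 7.11 and 7.02, with cortical marker means of 1.29, 0.76 and 1.05, and the difference was above 0 in 2 of 5 sets. At 8 h, 72 h and 7 d the brighter one lay at 0.07, 0.08 and -0.08 (SE 0.12, 0.12 and 0.11), with limma adjusted p of 0.971, 0.908 and 1.0.

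Kcnn2 (SK2), the subunit widely found in dendritic spines, had higher CIE than Ctrl means at each time. At 8 h the 5 Ctrl arrays ran from 8.70 to 8.91 and the 5 CIE arrays from 8.86 to 9.06, and at 72 h the 6 Ctrl arrays from 8.54 to 8.68 and the 5 CIE arrays from 8.67 to 8.92. At 8 h Ctrl replicate 8 lay above 2 of the CIE arrays, and at 72 h CIE replicate 63 alone lay below a Ctrl array. The differences were 0.17 (SE 0.09) at 0 h, 0.14 (SE 0.10) at 8 h, 0.18 (SE 0.09) at 72 h and 0.08 (SE 0.09) at 7 d, above 0 in 1 of 5 sets at 0 h and in 5 of 5 at both 8 h and 72 h. None of the later ones passed (limma adjusted p = 0.851, 0.692 and 1.0). Its lowest mean was Ctrl at 72 h, 8.61 ± 0.06 (SD, n = 6), and its highest CIE at 8 h, 8.94 ± 0.08 (SD, n = 5).

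Kcnn3 (SK3), known from dopamine neurons, was dim. Its group means ran from 5.86 to 6.04, and its differences were 0.09, 0.16, 0.13 and -0.06 at 0 h, 8 h, 72 h and 7 d (SE 0.08, 0.09, 0.08 and 0.08), with limma adjusted p of 0.732, 0.746 and 1.0 at the later times. Of 10 other genes of SK channels and calmodulin signalling, 6 were measured and 0 passed at any time, among them the related channel gene Kcnn4 at 0.15 (SE 0.07) at 0 h. Kcnn4 had a mean of 6.395 over all arrays, below the median of 6.96 of all probesets.

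**Figure D3:**
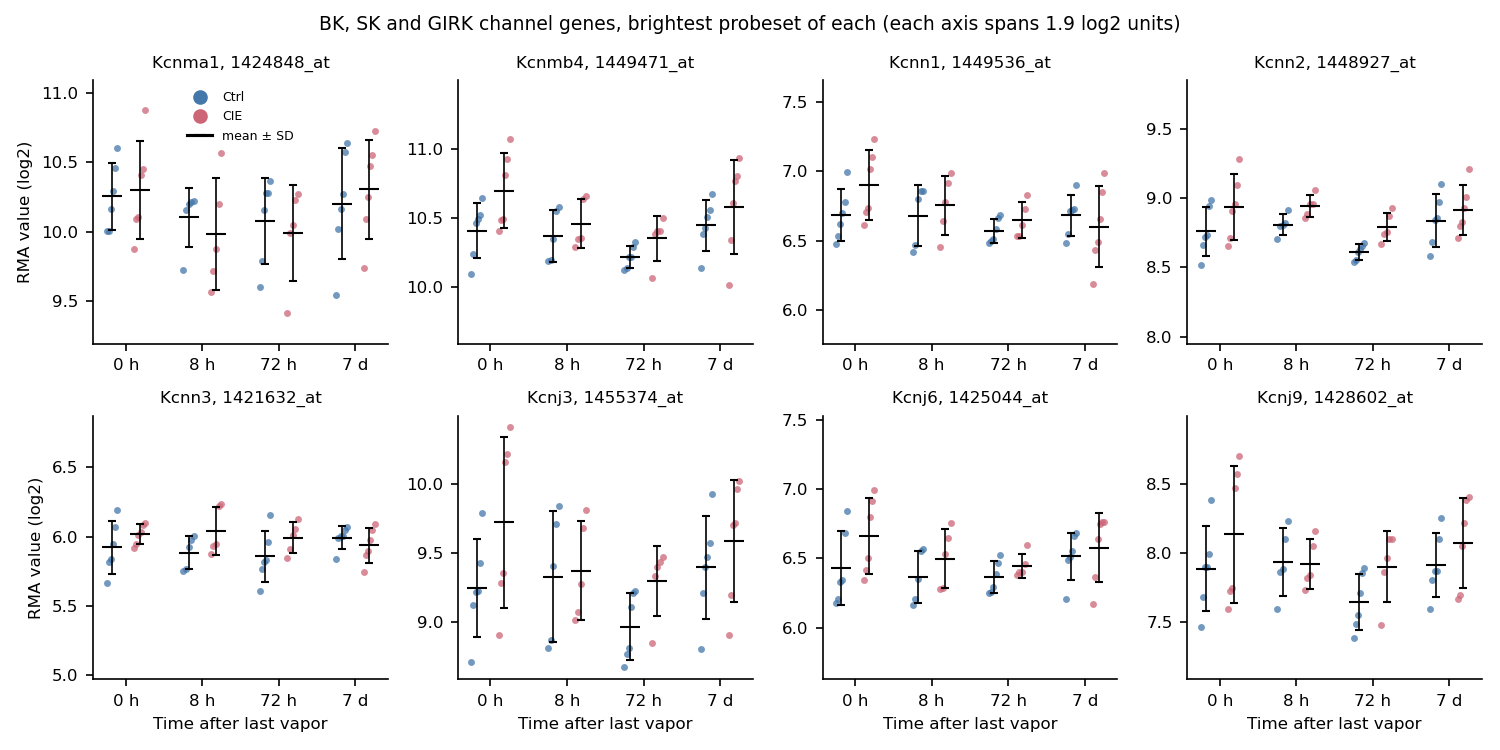
RMA values (log2, vertical axes) of the brightest probesets of the 8 BK, SK and GIRK genes in each of 45 arrays by time after the last session (horizontal axes), with blue points for Ctrl, red for CIE and bars for the mean ± SD. The arrays of CIE and Ctrl overlap in every panel and time, and Kcnj3 spreads most at 0 h, from 8.91 to 10.40 in CIE.

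Of the GIRK genes, Kcnj3 (GIRK1) had the widest range of values. At 0 h the 6 Ctrl arrays of its brightest probeset ran from 8.72 to 9.79 with a median of 9.22 and the 6 CIE arrays from 8.91 to 10.40 with a median of 9.75. The CIE arrays formed a high part, replicates 72, 5 and 67 (cortical marker means 1.29, 1.05 and 0.76) at 10.40, 10.21 and 10.15, and a low part of 9.35, 9.28 and 8.91 within the Ctrl range. Within sets at 0 h, which leave out CIE replicate 72 and Ctrl replicate 20, the difference was above 0 in 2 of 5 and ran from -0.44 to 1.5. The mean difference over all arrays at 0 h was 0.47 (SE 0.23). It was 0.04 (SE 0.25) at 8 h, 0.33 (SE 0.24) at 72 h and 0.19 (SE 0.23) at 7 d, with limma adjusted p of 0.996, 0.782 and 1.0. At 72 h it was above 0 in 5 of 5 sets.

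The other 3 Kcnj3 probesets correlated with the brightest within groups at 0.94, 0.73 and 0.34. Their differences at 0 h, in the same order, were 0.52 (SE 0.28), 0.27 (SE 0.12) and 0.03 (SE 0.08). At 72 h the first of them lay at 0.61 (SE 0.29), with an unadjusted p of 0.0417 and a limma adjusted p of 0.682, and was singled out after its value was seen.

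The brightest probeset of Kcnj6 (GIRK2) lay between group means of 6.36 and 6.66. Its differences were 0.23 (SE 0.12) at 0 h and 0.13, 0.08 and 0.06 at 8 h, 72 h and 7 d (SE 0.13, 0.12 and 0.12), with limma adjusted p of 0.929, 0.902 and 1.0. The highest CIE arrays of Kcnj6 at 0 h were replicates 5, 72 and 67, at 6.99, 6.91 and 6.80, with cortical marker means of 1.05, 1.29 and 0.76, and the difference was above 0 in 2 of 5 sets. The other 4 Kcnj6 probesets lay between -0.10 and 0.03 at 0 h. Kcnj9 (GIRK3), the subunit linked to ethanol and drug responses in knockout mice, had group means from 7.65 in Ctrl at 72 h to 8.13 in CIE at 0 h. Its differences were 0.25 (SE 0.17) at 0 h and -0.01, 0.25 and 0.16 later (SE 0.18, 0.18 and 0.17), with limma adjusted p of 0.998, 0.769 and 1.0. At 0 h replicates 72, 5 and 67 of CIE lay at 8.70, 8.57 and 8.47 for Kcnj9 and the other CIE arrays at 7.60 to 7.75, within the Ctrl range of 7.47 to 8.38. These 3 are the mice with cortical marker means of 1.29, 1.05 and 0.76, and the Kcnj9 difference was above 0 in 2 of 5 sets. The other 3 Kcnj9 probesets lay between -0.13 and 0.07 at 0 h, and one of these, singled out after its value was seen, lay at -0.13 (SE 0.06, limma adjusted p = 1.0) at 7 d.

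Of 22 genes of GIRK partners, including the G protein subunits and regulators, 1 fell and 0 rose at 0 h, with a median of -0.09, and 0 passed at 8 h, 72 h and 7 d. The one that fell was Rgs2, a protein that speeds the shut-off of G proteins, from a Ctrl mean of 12.50 to a CIE mean of 12.12 (-0.39, SE 0.08). The cardiac GIRK partner Kcnj5 lay at 0.17 (SE 0.13) and was dim, with a mean of 5.63 over all arrays. Of 22 genes for receptors that open GIRK channels, 18 were measured and 1 fell at 0 h, Grm3, an inhibitory glutamate receptor, from 12.31 to 11.98 (-0.32, SE 0.07); 0 passed later. Of 12 genes for calcium sources of BK and SK channels, 10 were measured and 0 passed at any time. These list members were tested at the same 0 h contrast as the rest of the arrays, with 1.59% of all probesets passing there.

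Time after the last session was compared within each treatment over 8 h, 72 h and 7 d. Within Ctrl, 0 of 25 probesets passed by the limma F test, against 0.169% of all, and 3 of 25 had an unadjusted p under 0.05, against 7.47%. These 3 were Kcnn2 and 2 Kcnma1 probesets, and the smallest adjusted p was 0.466. Within CIE, 0 of 25 passed, against 0.546% of all, and 1 of 25, a Kcnma1 probeset, had an unadjusted p under 0.05, against 8.25%, with an adjusted p of 0.384. The change of the CIE effect between any pair of later times passed for 0 of 25, against 0.0244% of all, and 3 of 25 had an unadjusted p under 0.05 for some pair, against 10.9%. These were 2 Kcnma1 probesets and 1 of Kcnj9, none of them the brightest of its gene, each between 72 h and 7 d.

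Several of the genes varied together between mice of the same group. After group means were subtracted, the 10 pairs among Kcnmb4, Kcnn1, Kcnj3, Kcnj6 and Kcnj9 correlated at r from 0.60 to 0.93 over 45 arrays. These genes were grouped after their values were seen, so the range reflects that choice. Their r ran from 0.194 to 0.437 with Kcnma1, from 0.351 to 0.588 with Kcnn2 and from -0.335 to -0.101 with Kcnn3. It ran from -0.545 to -0.398 with the brighter Kcns2 probeset and from -0.551 to -0.335 with the dimmer. All points share the 45 arrays and their dissections. Among the 8 groups, Ctrl at 72 h had the lowest mean at the brightest probesets of Kcnmb4, Kcnn1, Kcnn2, Kcnn3, Kcnj3, Kcnj6 and Kcnj9, and also the lowest cortical marker mean (-0.54).

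The same 5 genes tracked the markers of cortical pyramidal neurons. With the mean of 9 cortical markers, none of them a member, Pearson's r within groups was 0.95 for Kcnj3, 0.93 for Kcnmb4, 0.90 for Kcnj9, 0.82 for Kcnj6 and 0.73 for Kcnn1 (n = 45). Spearman's rho was 0.96, 0.94, 0.93, 0.83 and 0.73 in the same order. Permutation within groups gave two-sided p of 1e-05 for the first 4, the smallest that 100000 draws can give, and 3e-05 for Kcnn1 by r, and adjusted p of at most 7e-05 by r and 5e-05 by rho over the 30 relations computed. Without the 2 arrays farthest from the median of the marker mean, r was 0.95, 0.92, 0.90, 0.78 and 0.68, and with set means removed from all arrays it was 0.95, 0.94, 0.90, 0.85 and 0.74.

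**Figure D4:**
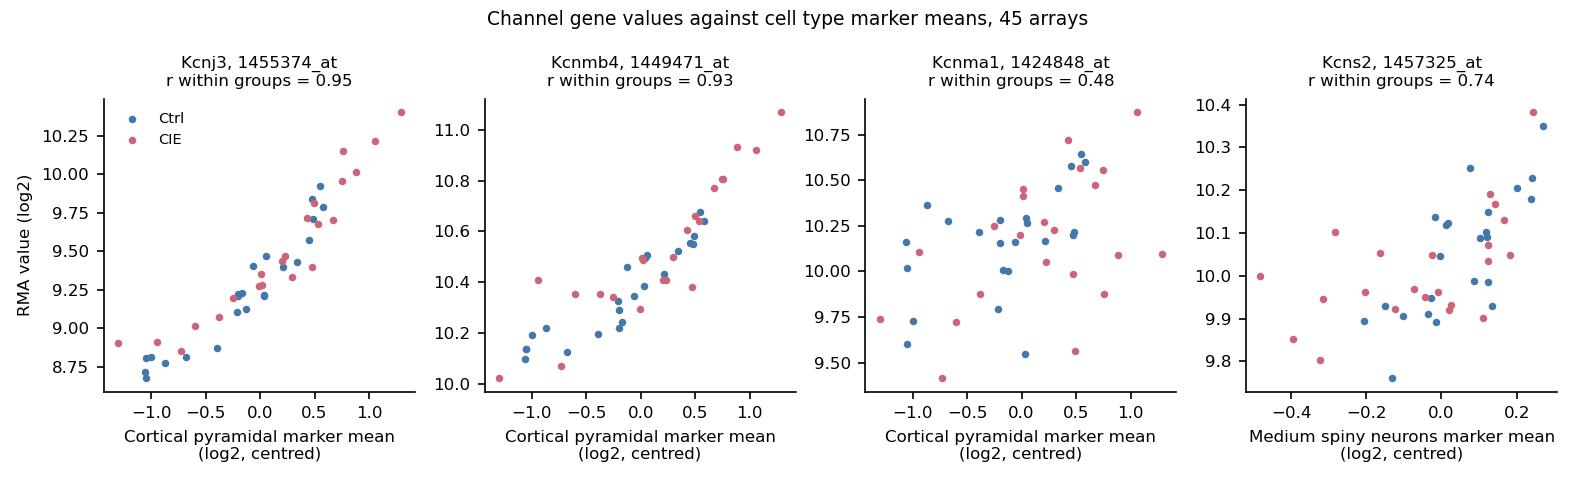
RMA values (log2, vertical axes) of Kcnj3, Kcnmb4 and Kcnma1 against the mean of cortical pyramidal neuron markers and of the brighter Kcns2 probeset against the mean of medium spiny neuron markers (log2, centred over arrays, horizontal axes), with 1 point per array, blue for Ctrl and red for CIE. Kcnj3 and Kcnmb4 rise with the cortical mean in both treatments (r within groups 0.95 and 0.93), Kcnma1 scatters more (0.48), and Kcns2 rises with the medium spiny neuron mean (0.74).

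Kcnma1 and Kcnn2 followed the cortical mean less closely, at r = 0.48 (rho 0.45, permutation adjusted p = 0.0056 by r and 0.0074 by rho) and 0.48 (rho 0.48, permutation adjusted p = 0.011 and 0.006). Kcnn3 lay at -0.23 (rho -0.31, permutation adjusted p = 0.15 and 0.068). Both Kcns2 probesets ran the other way, at -0.47 for the brighter (rho -0.50, permutation adjusted p = 0.0056 and 0.0033) and -0.44 for the dimmer (rho -0.49, permutation adjusted p = 0.011 and 0.0042). With the mean of 12 medium spiny neuron markers, r was 0.74 for the brighter Kcns2 probeset (rho 0.70, permutation adjusted p = 4e-05 and 3e-05) and 0.54 for the dimmer (rho 0.55, permutation adjusted p = 0.0013 and 0.0012), against -0.85 for Kcnj3, -0.78 for Kcnj6, -0.76 for Kcnj9, -0.71 for Kcnmb4 and -0.66 for Kcnn1 (rho -0.84, -0.82, -0.76, -0.75 and -0.67 in the same order, permutation adjusted p of at most 7e-05). The pair of Kcns2 probesets had the same sign against both marker means. With the astrocyte mean, the brighter Kcns2 probeset lay at -0.62 (rho -0.59, permutation adjusted p = 7e-05) and the dimmer at -0.41 (rho -0.42, permutation adjusted p = 0.021).

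The cortical mean of each array was used as a covariate, a setting added after the data were seen. The SE of the 0 h difference was then smaller for every brightest probeset except that of Kcnn3 (0.0797 and 0.0799). The 0 h difference of Kcnn3 went from 0.09 to 0.116, that of Kcnn1 from 0.22 to 0.115 and that of Kcnn2 from 0.17 to 0.12. The SE of the 0 h difference of Kcnj3 went from 0.23 to 0.07, and the difference from 0.47 to 0.20. That of Kcnmb4 went from 0.29 (SE 0.12) to 0.15 (SE 0.05), that of Kcnj9 from 0.25 (SE 0.17) to 0.06 (SE 0.08) and that of Kcnj6 from 0.23 (SE 0.12) to 0.11 (SE 0.07). At 72 h the difference of Kcnj3 went from 0.33 to -0.06 (SE 0.08) and that of Kcnmb4 from 0.13 to -0.07 (SE 0.05). The dimmer Kcns2 probeset, chosen on its 0 h value, lay at -0.67 (SE 0.11) at 0 h and the brighter at 0.06 (SE 0.07). The cortical marker mean averaged 0.36 ± 0.83 (SD, n = 6) in CIE and -0.07 ± 0.56 (SD, n = 6) in Ctrl at 0 h, and 0.09 ± 0.47 (SD, n = 5) and -0.54 ± 0.38 (SD, n = 6) at 72 h. Of the 9 markers, 6 were higher in CIE at 0 h and 0 passed by limma. Their differences ran from -0.11 (Lamp5) to 0.93 (Neurod1). At 72 h all 9 were higher in CIE and 0 passed. The medium spiny neuron mean, which both Kcns2 probesets followed more closely, was not used as a covariate. It averaged -0.14 ± 0.29 in CIE and 0.08 ± 0.12 in Ctrl at 0 h (SD, n = 6 each). Only 1 of its 12 markers was then higher in CIE (median difference -0.23). Later this held for 5 of 12 (8 h), 10 of 12 (72 h) and 0 of 12 (7 d, median -0.14). By limma 0 of these markers passed at any time. The parts that cortical tissue and medium spiny neurons had in the differences of the channel genes were not tested.

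The genes most like each member, by r within groups over 45 arrays, were taken from all genes at or above the median level. For Kcnj3 they were Nxph2, Serpini1, Etl4, Ncald and Ppm1e, at 0.96 each. For Kcnmb4 they were Neurod2, Slc17a7, Adcy1, Syngr1 and Nptx1 (0.931 to 0.949), of which Slc17a7, the vesicular glutamate transporter of cortical neurons, and Nptx1 are on the cortical marker list. For Kcnj9 they were Enc1, Fhod3, Slc6a7, Ndrg3 and Mtfp1 (0.943 to 0.955), and for Kcnj6 Ptprk, Oxr1, Kif5c, Frzb and Fkbp1b (0.868 to 0.88).

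The nearest genes of the remaining members follow. Kcnma1 was most like Mmp16, Pde1a, G2e3, Tenm3 and Map1b (0.835 to 0.876), Kcnn1 like Tmem151b, 6430548M08Rik, AI413582, Fabp3 and Zfp703 (0.827 to 0.868) and Kcnn2 like Pip5k1b, Stat6, Clgn, Adam22 and Ube2ql1 (0.803 to 0.813). Kcnn3 reached only 0.651 to 0.679, with Naa60, Cnot10, Ccdc130, Aste1 and Usp2. The brighter Kcns2 probeset was most like Shb, Acvr1c, Mtcl1, Actn1 and Arhgef15 (0.815 to 0.869), and the dimmer, looked at after its values were seen, like Spred1 (0.814) and Dlx6 (0.791), with no gene shared among the nearest 5. Over the 8 group means the dimmer Kcns2 probeset was most like Hbegf, Npepps, Kmt2a, St8sia2 and Mafg (0.915 to 0.949). The brighter was most like Zdhhc18, Bcl6, Malat1, Ippk and Gprin2 (0.834 to 0.892). Each of these r rests on 8 points. The group means of the dimmer probeset hold the 0 h difference by which the gene was chosen, so nothing is read from its neighbours.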

How the data were processed

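RNA of the NAC of 45 mice was measured on Affymetrix arrays, 1 array per mouse, in 8 groups taken from the sample labels. The deposited log2 expression values per probeset were made by the authors with RMA, and their methods give quantile normalization within and then across hybridization batches, followed by ComBat. No RMA version is stated in the sources used here. No value was transformed or filtered. Symbols came from the platform annotation: 34945 of 45037 probesets had 1 symbol, 932 several and 9160 none, and only the first were named.

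A linear model holding the 8 group means was fitted to all probesets and arrays with limma 3.58.1 in R 4.3.3, with Benjamini-Hochberg adjustment within each contrast and a threshold of 0.01. The members and the gene lists were chosen with earlier results of these data known. Partner genes were named where they passed at their brightest probeset or were a defining partner. The 5 nearest genes of each member were named by correlation. Any other probeset singled out was chosen after its values were seen. The labels give no batch. Arrays that shared at least 5 exactly equal values (tolerance 2e-08) were taken as a hybridization set, giving 6 sets of 6 to 8 arrays with at most 1 per group, and Ctrl 0 h replicate 20 in none. Correlations with marker means were permuted within groups 100000 times in Python 3.11.15 with numpy. The fit was tested on simulated data. Other settings were the sets as a block, another quantile normalization, median centring, trend and robust empirical Bayes, array weights, no dim probesets, 1 probeset per gene, only the arrays compared, each array left out in turn and, added later, a cortical covariate.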

Additional observations from a re-analysis of the deposited data

Results flagged for a closer look

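Of 80 groups of arrays examined over 10 probesets, 6 held an array whose gap to the next one was large for the range of its group. Chance flags about 1 in 20 groups. At 8 h, Ctrl replicate 4 read 9.73 for Kcnma1, below the others at 10.16 to 10.22. At 72 h, CIE replicate 63 was low for both Kcnmb4 (10.07, the others 10.38 or above) and Kcnj3 (8.85, the others 9.33 to 9.47). At 7 d, Ctrl replicate 80 read 5.84 for Kcnn3, below 5.99 to 6.07. The dimmer Kcns2 probeset was low in CIE replicate 15 at 8 h (6.80, the others 7.14 to 7.21) and in CIE replicate 27 at 7 d (6.79, the others 7.19 to 7.33). No member's CIE effect differed between later times at the threshold by the limma test of that difference.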

How the results depend on the processing

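No paired analysis by replicate number was possible because the groups share none, and with the hybridization sets as a block, which pair CIE with Ctrl arrays, the counts below were also 0. The 6 counts of member probesets passing at the later times, over time and between times were 0 under every setting run, including each array left out (lowest 0, highest 0). The median difference at 0 h, 0.09, lay between 0.06 (cortical covariate) and 0.22 (brightest probeset of each gene alone), and between 0.05 and 0.14 with 1 array left out. The 0 h difference of the dimmer Kcns2 probeset lay between -0.76 and -0.67, and between -0.78 and -0.68 with 1 array left out. At 72 h it reached an adjusted p of 0.039 with array weights, above the threshold of 0.01. Signs turned for differences that did not pass, and the cause was not tested. Under the cortical covariate at 72 h these were Kcnmb4 (-0.0687), Kcnn1 (-0.0716), Kcnj3 (-0.0602), Kcnj6 (-0.0897), Kcnj9 (-0.018) and the brighter Kcns2 probeset (0.0538), at 8 h Kcnj3 (-0.0232) and at 0 h Kcnma1 (-0.0629). With array weights at 8 h, Kcnn1 lay at -0.00216 and Kcnj3 at -0.0197. With 1 array left out, the differences that turned ran from -0.0674 to 0.133 (Kcnma1, 0 h), -0.0409 to 0.065 (brighter Kcns2 probeset, 0 h), -0.185 to 0.0556 (Kcnma1, 72 h), -0.0293 to 0.216 (Kcnma1, 7 d), -0.158 to 0.00282 (Kcnn1, 7 d), -0.086 to 0.171 (Kcnj3, 8 h), -0.000211 to 0.142 (Kcnj6, 7 d), -0.0998 to 0.0592 (Kcnj9, 8 h), -0.0627 to 0.0265 (brighter Kcns2 probeset, 72 h) and -0.0952 to 0.0434 (dimmer Kcns2 probeset, 7 d). Leaving out dim probesets removed 13 of 25 members. Their signal over background limits what a small change can show.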
